A study of Homo sapiens with 4 samples.

Results

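Contact domains of 600 kb or more were examined in Hi-C maps of MDA-MB-231 cells, an established human triple-negative breast cancer line of mesenchymal character. Hi-C joins and sequences pieces of DNA that lie close together in the nucleus, and a contact domain is a stretch whose parts touch each other more often than they touch the flanks. The genotype was given as wild type in every sample. Cells received either DMSO, the vehicle, or 75 nM THZ1, a covalent inhibitor of the kinase CDK7, for 48 h, with 2 libraries per condition, which the series calls technical replicates. Every test below therefore measured only the spread between these libraries, which may be technical, and 1 cell line stands behind all of them. All coordinates are on GRCh37 (hg19). Domains were taken from the list made for each library on a 10 kb grid, and those with 600 kb or more between their boundaries were kept. They numbered 1714 of the 7418 domains in the 4 lists.

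Contact domains of this size are usually bordered by bound CTCF, a zinc finger protein that stops the cohesin ring as it extrudes a loop of chromatin. Where CTCF motifs at the borders face each other, a focal loop often joins the ends of the domain, and further loops inside it connect genes with their regulatory elements or with other CTCF sites. CDK7 is the catalytic subunit of the CDK-activating kinase and a part of the transcription factor TFIIH, where it phosphorylates RNA polymerase II. The study asked how its inhibition altered chromosome structure, with condensin, the complex that compacts chromosomes, as its main interest.

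The sequence at the borders was read from the GRCh37 reference in 2 domains whose ends were joined by a loop in all 4 libraries and that carried a core CTCF motif, facing inward, in both loop anchors of vehicle replicate 1. They were chosen after the values were seen, and show what a pair of facing motifs looks like where one was found. Few large domains had such a pair, as counted below. The core of the CTCF motif was searched on both strands and no other motif was searched. The core is set in capitals within 40 bases written 5′ to 3′ on the strand of the match. The domain chr20:46290001-47230000 holds the start of SULF2, a sulfatase that edits heparan sulfate. Its left match lies in an intron of SULF2 at chr20:46292674-46292713 on the plus strand, and its right match is intergenic at chr20:47237180-47237219 on the minus strand.
SULF2 domain, left: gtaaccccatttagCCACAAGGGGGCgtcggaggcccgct
SULF2 domain, right: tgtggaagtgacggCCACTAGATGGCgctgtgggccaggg
The domain chr7:83560001-84650000 holds the start of SEMA3A, a secreted guidance cue of growing axons. Its left match is intergenic at chr7:83565552-83565591 on the plus strand, and its right match lies in an intron of SEMA3D at chr7:84652568-84652607 on the minus strand.
SEMA3A domain, left: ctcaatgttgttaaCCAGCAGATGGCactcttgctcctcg
SEMA3A domain, right: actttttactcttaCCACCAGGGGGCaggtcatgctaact

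Over the 116 large domains that all 4 lists shared, the motif was found within 10 kb of the left boundary on the plus strand in 18.97% and within 10 kb of the right boundary on the minus strand in 24.1%. Of all 142938 windows of 20 kb in the genome, 9.33% held it on the plus strand and 9.22% on the minus strand. The outward-facing strand gave 14.7% at the left and 16.4% at the right boundary. Inward-facing matches at both boundaries were found in 5 of the 116 domains (4.31%), and outward-facing ones in 3 (2.59%). The core forms searched are a strict subset of the sequences that CTCF binds, so a window without a match says nothing about the factor.

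THZ1 libraries held slightly more large domains than vehicle libraries, and far more smaller ones. Vehicle replicates 1 and 2 had 409 and 411 large domains and THZ1 replicates 1 and 2 had 439 and 455 (410 ± 1.41 and 447 ± 11.3, mean ± SD, n = 2 each). The 2 conditions did not overlap, but 2 libraries against 2 cannot give an exact permutation p below 0.333, which was the p here (2-sided) and holds for every comparison below in which conditions do not overlap. Smaller domains numbered 789 and 987 under vehicle and 2038 and 1890 under THZ1, so large domains made up 34.1% and 29.4% of the vehicle lists and 17.7% and 19.4% of the THZ1 lists. The share of the sequenced genome inside large domains was 12.2% and 12.4% under vehicle and 14.04% and 14.5% under THZ1. The study's methods give a range of reads over its samples but no depth for each library. The loop lists held 20768 and 24219 loops with vehicle and 17222 and 15066 under THZ1, and contacts at these loops summed to 622305, 762701, 631600 and 551436 in the same order.

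**Figure D1:**
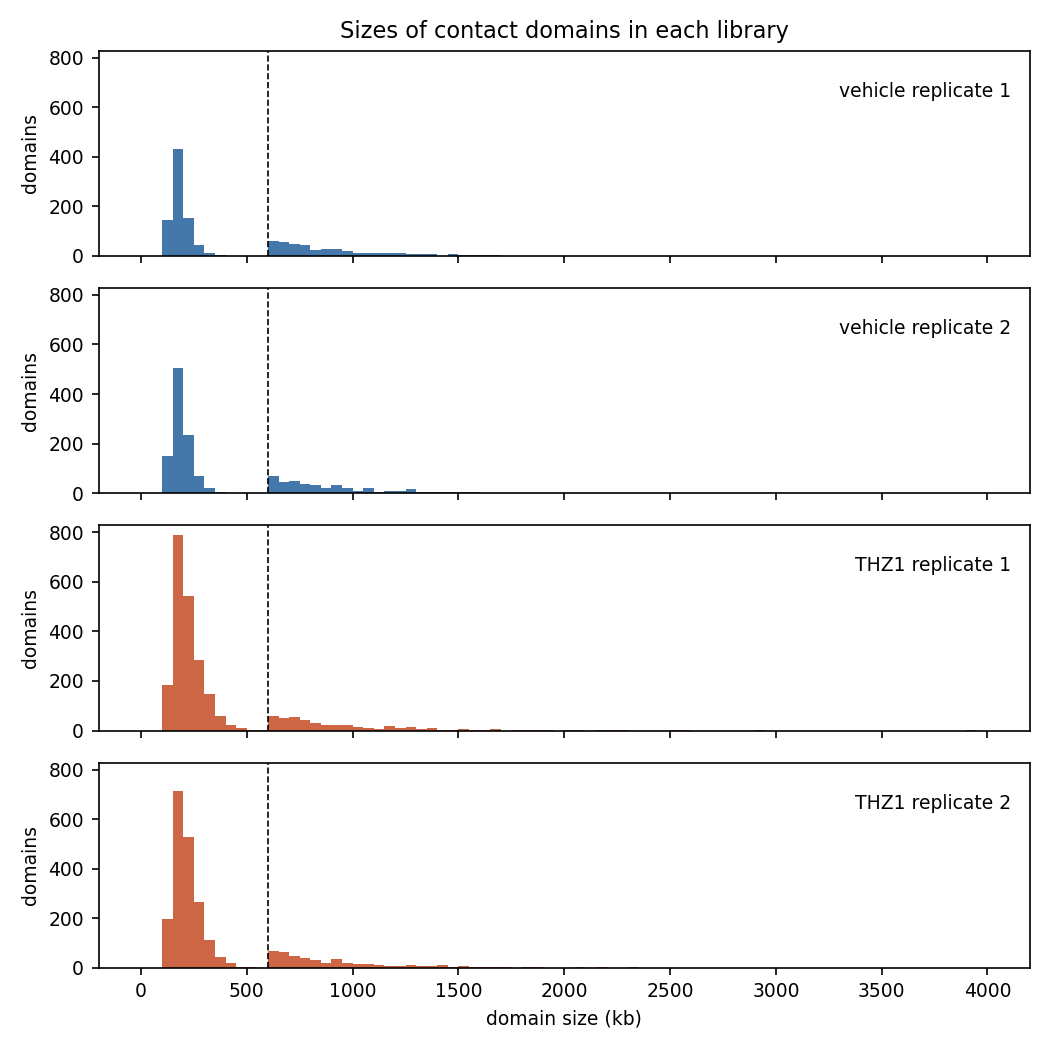
Number of contact domains (vertical axis) per 50 kb of domain size (horizontal axis, kb) in each library, with vehicle in blue, THZ1 in orange and the 600 kb limit dashed. In every library the counts fall to near 0 below the limit and start again at it.

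The size limit coincided with a break in every list. Vehicle libraries had 0 domains of 500 to 590 kb, and each THZ1 library had 6, while domains of 600 to 690 kb numbered 112, 115, 112 and 129 in vehicle replicates 1 and 2 and THZ1 replicates 1 and 2. The last domain below the limit measured 430, 440, 590 and 570 kb, and the first above it 610, 610, 600 and 600 kb. Between 300 and 600 kb there were 15 and 22 domains with vehicle and 204 and 151 under THZ1. Large domains had a median size of 790 and 800 kb under vehicle and 820 and 810 kb under THZ1. Those of 2000 kb or more numbered 2 and 3 under vehicle and 13 and 12 under THZ1. The longest call in each THZ1 library, 3940 and 3920 kb, spanned an unsequenced stretch with a mean corner score of 0.00426.

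Large and smaller domains also differed in the scores that the domain caller wrote beside them. The corner score rates how sharply contacts fall off at the tip of the domain. Its median over large domains was 0.735 and 0.756 under vehicle and 0.874 and 0.846 under THZ1, against 1.08, 1.11, 1.14 and 1.13 over smaller domains. The variance score of the upper triangle never passed 0.155 in a smaller domain of vehicle replicate 1, whereas 99.5% of its large domains lay above that value, and in the other 3 libraries 95.2% to 99.5% of large domains lay above the highest smaller domain. The sign score of the upper triangle was 0.5 or more in every smaller domain of all 4 lists and below 0.5 in 172, 162, 143 and 154 large domains. Large domains overlapped a smaller domain of the same library in 0, 0, 1 and 1 cases. The lists thus held large and smaller domains side by side rather than nested, and counts of smaller domains inside large ones within 1 library are limited by this. Every comparison of large with smaller domains also compares calls of different score ranges, and size and kind of call cannot be told apart in it.

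**Figure D2:**
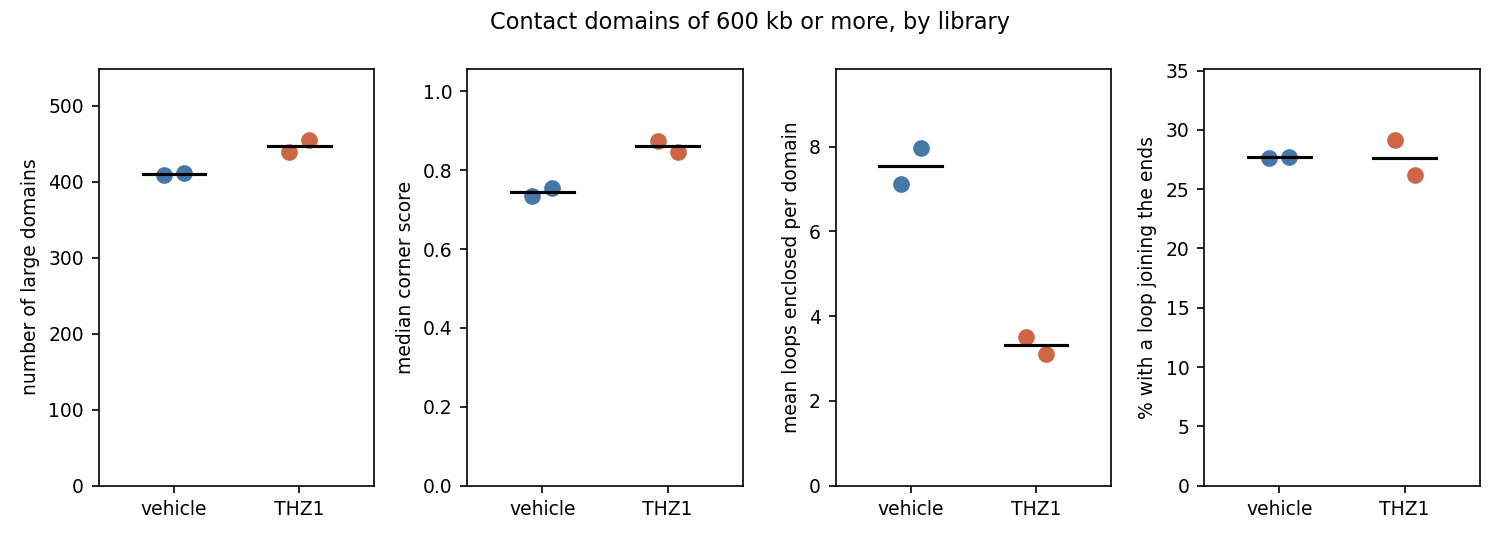
Number of large domains, their median corner score, mean number of loops enclosed per domain and percent with a loop joining the ends, in each library (points) with the mean of 2 libraries per condition (bars). Loops enclosed separate the conditions most, and the shares with a joining loop overlap.

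Large domains were poor in genes. Protein-coding gene starts per Mb came to 4.06 and 4.28 in large domains under vehicle and to 3.59 and 3.71 under THZ1, against 7.05 over the sequenced genome. Domains up to 200 kb had 12.6 to 13.3 starts per Mb and domains over 200 and under 600 kb had 8.30 to 9.66. Large domains were below both classes in all 4 libraries (exact sign flips over 4 libraries, 2-sided p = 0.125, the smallest they can give). GC content was 40.4%, 40.4%, 39.9% and 40.1% in large domains, against 40.9% in the genome and 43.6% to 43.99% in domains up to 200 kb. A large domain held a median of 2 gene starts in each library. Those with none numbered 14 and 18 under vehicle and 35 and 32 under THZ1.

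**Figure D3:**
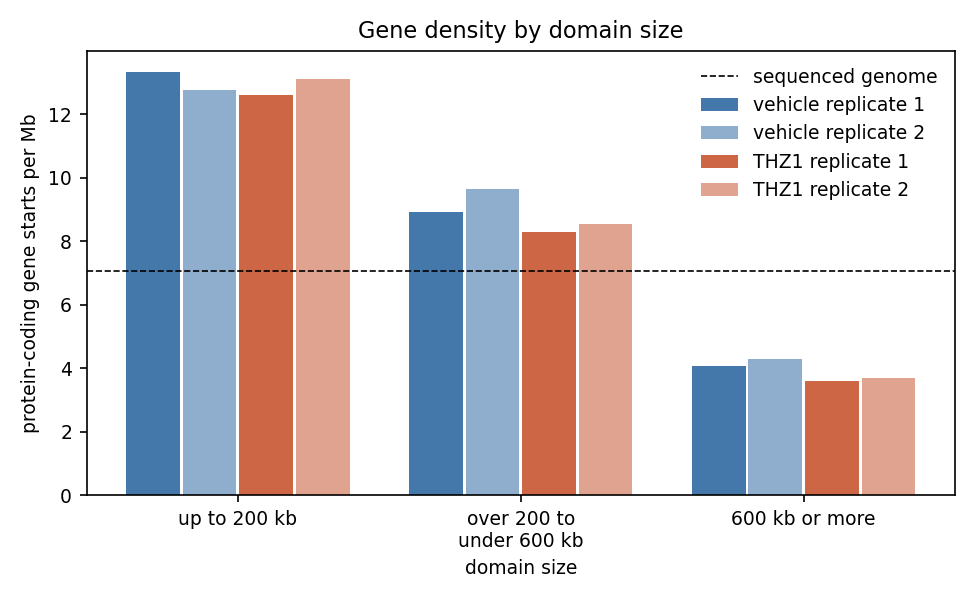
Protein-coding gene starts per Mb (vertical axis) in domains of 3 size classes (horizontal axis), with 1 bar per library and the sequenced genome as a dashed line. Bars for 600 kb or more lie at 3.59 to 4.28, below the genome at 7.05, and both smaller classes lie above it.

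Of 81 ribosomal protein genes and their paralogs, which include genes that every cell transcribes strongly, 1 started in a large domain in each library (1.23%), against 7.05%, 7.52%, 7.16% and 7.61% of all 20136 protein-coding genes. Of 39 HOX genes, the homeobox genes of body axis patterning, HOXD13 was the only one to start in a large domain, and it did so in every library, in chr2:176200001-176960000 beside EVX2 and LNPK. That domain enclosed 0 loops in every library. HOXD13 made up 2.56% of the HOX list, near the 2.21% of all protein-coding genes that started in large domains in every library. Olfactory receptor genes lie in clusters and are mostly silent outside the nose. Of 415, 20 and 13 (4.82% and 3.13%) started in large domains with vehicle and 69 and 60 (16.6% and 14.5%) under THZ1. These counts did not overlap between conditions, while the shares of all protein-coding genes above did. A large domain over a cluster adds many of these genes at once, so they are not separate observations. The large domains that only both THZ1 lists held included the clusters at chr1:247760001-248560000, chr1:158150001-159040000 and chr12:55040001-56030000. Zinc finger genes numbered 29, 90, 81 and 78 of 515, with vehicle replicate 1 apart from the other 3.

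Short lists of genes were set beside the 7.05% to 7.61% of all protein-coding genes that started in large domains. Of all 20136, 445 (2.21%) did so in every library. Most genes of every list lay outside large domains, and in lists this short a few genes set the share. Of 16 mesenchymal and basal genes, 4, 4, 4 and 3 started in large domains (25% in 3 libraries and 18.8% in THZ1 replicate 2). SNAI2, ZEB1 and CDH2 did so in every library. SNAI2 and ZEB1 encode transcription factors of the epithelial-mesenchymal transition, and CDH2 encodes N-cadherin. Of 9 luminal genes, 1, 1, 2 and 2 did (11.1% to 22.2%), and GATA3, a transcription factor of the luminal breast lineage, did so in every library. Of 34 developmental transcription factors 5, 6, 5 and 7 did (14.7% to 20.6%). Of 38 long neuronal and adhesion genes 3, 3, 5 and 5 did (7.89% to 13.2%), with KCNIP4 and MAGI2 in every library. Genes of condensin and the CDK-activating kinase numbered 1, 0, 1 and 0 of 11 and those of cohesin and CTCF 2, 1, 0 and 1 of 11. CDK7 itself, MYC and GAPDH lay outside large domains in all 4 libraries.

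Chromosomes differed in how much of them lay in large domains. Coverage of chromosome 7 was 18.5% to 21.2% over the 4 libraries, and that of chromosome 21 was 2.34% to 5.67%. Chromosome 19, the densest in genes with 26.5 coding starts per Mb, had 1.24% in vehicle replicate 1 and 7.40% to 7.69% in the other 3 libraries. Chromosome 13 ranged from 8.54% in vehicle replicate 1 to 19.3% in THZ1 replicate 2, with vehicle replicate 2 at 15.5%.

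Large domains of one library were often missing from the next. Domains were matched 1 to 1 when both boundaries lay within 20 kb, and the Jaccard index, shared domains over all distinct domains, was 0.464 between the vehicle libraries and 0.426 between the THZ1 libraries. The 4 pairs of a vehicle and a THZ1 library gave 0.259 to 0.298, below both. The vehicle libraries shared 260 large domains, which were 63.6% and 63.3% of their lists, and the THZ1 libraries shared 267, or 60.8% and 58.7%. Smaller domains gave 0.323 between the vehicle libraries and 0.473 between the THZ1 libraries. Counted from vehicle replicate 1, 116 large domains (28.4% of its list) were in all 4 lists, and 109 (26.7%) were in its own list alone. In that library the median corner score was 0.777 for the former and 0.645 for the latter. In THZ1 replicate 1 the same groups had 1.152 and 0.640.

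The longest of the 116 shared domains held 1 to 3 coding starts each. First came chr5:96520001-98190000, which holds the start of RGMB, a BMP co-receptor, and enclosed 16 and 20 loops with vehicle and 9 and 9 under THZ1. Next came chr10:3210001-4850000 around PITRM1, KLF6 and AKR1E2, where KLF6 is a zinc finger transcription factor. It enclosed 40 and 51 loops with vehicle and 29 and 24 under THZ1, the widest difference of all 116 domains. The domain chr1:29550001-31180000, with MECR and the receptor phosphatase gene PTPRU, spans an unsequenced stretch of the reference and enclosed 5, 6, 4 and 2 loops. In each of these 3 domains both THZ1 libraries enclosed fewer loops than both vehicle libraries. The same held for 37.1% of the 116 shared domains and for 39.7% of shared domains of any size. Whether the longest domains differed from the others in this was not tested.

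Among the shared domains, gene-dense stretches and stretches without a coding start both occurred. The domain chr1:152590001-153270000 held 32 coding starts, among them the LCE and SPRR families, IVL and LORICRIN, which build the cornified envelope of the skin. It measured 660 kb and enclosed 1 loop in every library. The domain chr22:38390001-39100000 held 16, among them MAFF, CSNK1E and DDX17, and enclosed 8 and 8 loops with vehicle and 4 and 3 under THZ1. The domain chr14:105210001-105820000 held 14, among them the kinase gene AKT1 and the Notch ligand gene JAG2, and enclosed 12, 14, 10 and 8 loops. No coding start lay in chr10:91540001-92490000, chr8:105790001-106780000 or chr9:18080001-19040000. The last 2 of these overlap ZFPM2 and ADAMTSL1, genes of 1214 and 1004 kb. Of the 116 domains, 21 held or overlapped a gene longer than 500 kb. So did 16 of 75 large domains in both vehicle lists only and 23 of 95 in both THZ1 lists only.

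High mean corner scores belonged to chr8:124820001-125440000 (1.67), with FER1L6 and TMEM65 and to chr2:180970001-181930000 (1.53), with UBE2E3. The domain of TLE3, a transcriptional corepressor, at chr15:69750001-70940000 enclosed 22 and 26 loops with vehicle and 13 and 9 under THZ1.

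Large domains of the THZ1 libraries enclosed fewer loops. The mean number of loops lying wholly within a large domain of the same library was 7.13 and 7.96 under vehicle and 3.51 and 3.12 under THZ1 (7.55 ± 0.590 and 3.31 ± 0.277, mean ± SD, n = 2). The conditions did not overlap. Large domains without an enclosed loop numbered 26 and 27 under vehicle and 75 and 86 under THZ1. Loops of 90 kb or less made up 30.4% and 31.8% of enclosed loops with vehicle and 19.9% and 20.4% under THZ1. The remaining loops of each library had larger shares of such loops, 38.3% and 37.5% under vehicle and 26.8% and 26.05% under THZ1. THZ1 libraries also had fewer loops over the whole genome, 0.718 of the vehicle mean, and their large domains were partly different domains. The share of all loops that lay within large domains was 13.5% and 13.2% under vehicle and 8.54% and 9.19% under THZ1.

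On the same spans the difference was smaller. Within the outer limits of the 116 shared domains there were 562 and 690 loops with vehicle and 464 and 387 under THZ1, a ratio of means of 0.680. That ratio was close to the 0.718 over all loops of the genome. Loops of 90 kb or less had the lowest ratio (0.432), with 144 and 180 under vehicle against 83 and 57 under THZ1. Loops over 90 kb and up to 200 kb had a ratio of 0.473, with 114 and 144 against 64 and 58. Loops over 200 and up to 500 kb numbered 170 and 208 under vehicle and 152 and 126 under THZ1. Loops over 500 kb numbered 134 and 158 under vehicle and 165 and 146 under THZ1, so the conditions overlapped. Genome-wide ratios for the same 4 classes were 0.502, 0.697, 0.855 and 1.14. These spans were counted after the values were seen.

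**Figure D4:**
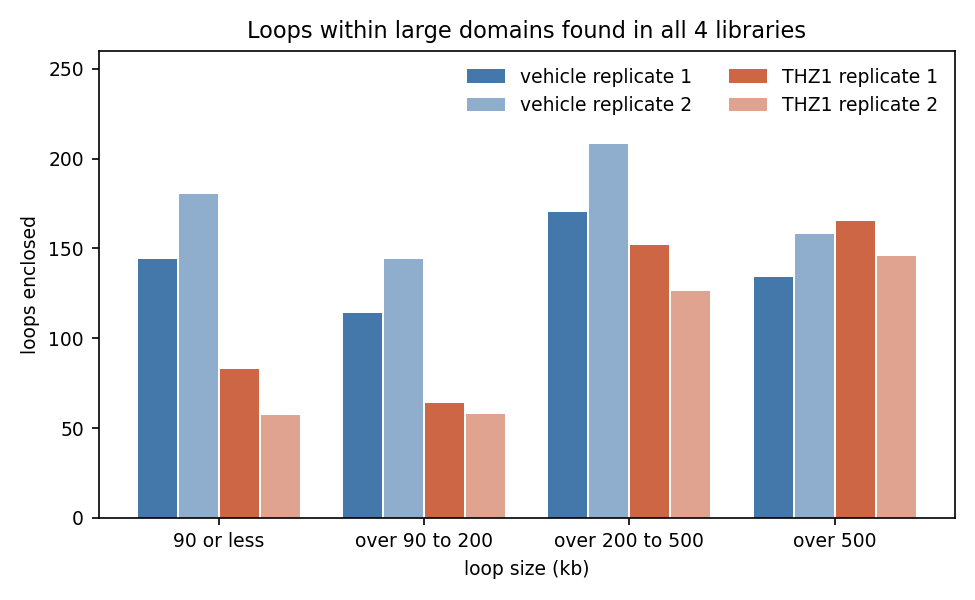
Loops enclosed by the 116 large domains that all 4 lists shared (vertical axis, number of loops) by loop size (horizontal axis, kb), with 1 bar per library. Both THZ1 libraries lie below both vehicle libraries in the 3 classes up to 500 kb and not in the last.

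Domain by domain, both THZ1 libraries enclosed fewer loops than both vehicle libraries in 43 of the 116 shared domains (37.1%) and more in 3 (2.59%). Over the 406 domains of any size that all 4 lists shared, these shares were 39.7% and 0.985%. The share of large domains with fewer loops was thus near that of all shared domains.

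The share of large domains whose ends were joined by a loop overlapped between conditions. Within 20 kb of both boundaries, 27.6% and 27.7% of large domains had such a loop with vehicle and 29.2% and 26.2% under THZ1. Wilson 95% intervals, which cover counting error only, were 23.5% to 32.2% for vehicle replicate 1 and 22.3% to 30.4% for THZ1 replicate 2. Domains up to 200 kb had one in 43.1% to 46.1% and domains over 200 and under 600 kb in 46.1% to 51.5%, above large domains in all 4 libraries (exact sign flips, 2-sided p = 0.125). Of the 116 shared domains, 41, 46, 48 and 47 had a joining loop, 25 in every library and 47 in none. Joining loops in both vehicle and neither THZ1 library occurred in 2 domains, and the reverse in 3. The overlap of the conditions does not show that the shares were equal.

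Large domains of the vehicle libraries often held smaller domains of the THZ1 libraries, and the reverse was rarer. Within a library, a smaller domain lay inside a large one in 0 vehicle cases and in 1 domain of each THZ1 library. Across conditions, 25.8% to 36.9% of the large domains of a vehicle library held a smaller domain of a THZ1 library. The reverse, a large domain of a THZ1 library holding a smaller domain of a vehicle library, was found for 2.51% to 4.40%. Between replicates of 1 condition the values ran from 4.14% to 15.2%. THZ1 lists held 2.21 times as many smaller domains (ratio of means), which moves with this result. With 789 smaller domains of highest corner score taken from each library, the ranges were 10.2% to 14.4% and 1.98% to 3.08%, so the difference shrank to 9.80 percentage points from 28.2 and still did not overlap.

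**Figure D5:**
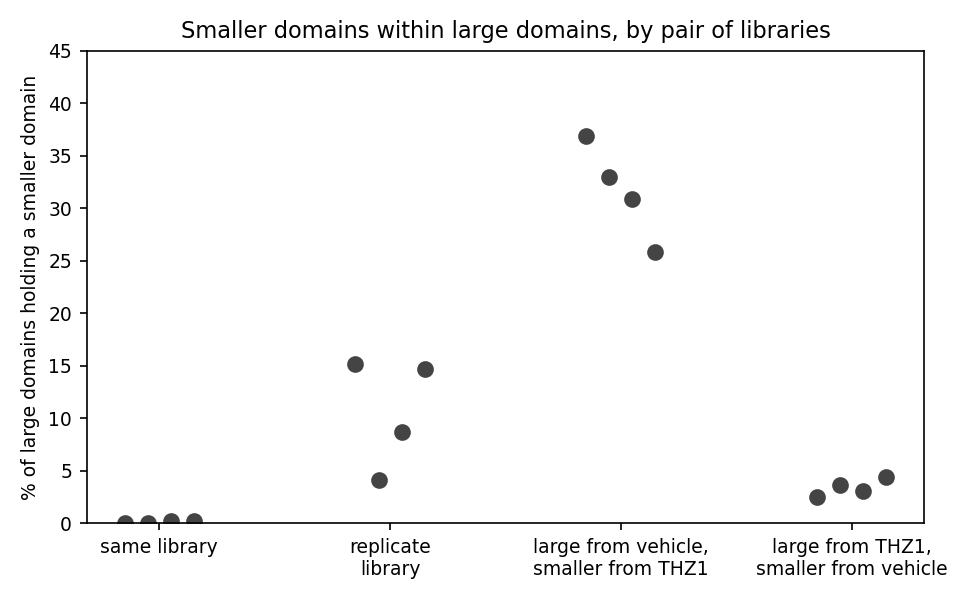
Percent of large domains of 1 library that hold a smaller domain of the same or another library (vertical axis), with 1 point per pair of libraries, grouped by the conditions of the pair (horizontal axis). Large domains from vehicle against smaller domains from THZ1 lie highest, at 25.8% to 36.9%.

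The same was seen in the 75 large domains that only both vehicle lists held. THZ1 replicate 1 had 73 smaller domains inside these spans and THZ1 replicate 2 had 67, in 57 and 55 of the 75 domains, and 50 domains held one in both. They had a median size of 230 and 240 kb. The 75 were chosen as lacking a matching large domain with THZ1, and large and smaller domains do not overlap within a list, so part of this count follows from the choice. The 95 large domains that only both THZ1 lists held were chosen in the same way, and 3 of them held a smaller domain of either vehicle library. In 82 and 76 of the 95, vehicle replicates 1 and 2 had neither a large domain over at least 50% of the span nor a smaller domain in it. Their median corner score was 0.669, against 0.773 for the vehicle-only and 0.959 for the shared domains.

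Among vehicle-only domains of high corner score, chr8:29190001-29910000 holds DUSP4, a phosphatase of MAP kinases, and chr2:27920001-28630000 holds FOSL2, a subunit of AP-1, with BABAM2, RBKS and MRPL33. Each had 1 smaller domain in both THZ1 libraries. The DUSP4 domain enclosed 11 and 17 loops with vehicle and 8 and 10 under THZ1 over the same span. The FOSL2 domain enclosed 17 and 17 under vehicle and 6 and 9 under THZ1. THZ1-only domains of high score were chr11:95550001-96150000, with the Notch coactivator gene MAML2 (1.81), and chr15:44140001-44820000, with FRMD5 (1.46). The MAML2 domain was the 1 large domain that held smaller domains of its own library, 2 in each THZ1 library.

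Loops present in all 4 lists could be compared in strength. Of 2624 such loops, 2619 were tested in edgeR, with the contacts at the loop set against the expected contacts of its surroundings, and 60 of these lay within a shared large domain or joined its ends. Of the 60, 25 were lower with THZ1 (41.7%, adjusted p of 0.05 or less) and 0 were higher, against 27.5% lower and 0.0382% higher among all 2619. At an unadjusted p of 0.05, 34 of the 60 passed. The median log2 change was -0.53 over the 60 and -0.41 over all loops. The 60 were also longer, with a median size of 400 kb against 140 kb, and the shares were not matched for size. DESeq2 with the same expectation called 1 of the 60, with 12 at an unadjusted p of 0.05, and 0.649% of all loops. With contacts scaled by TMM and not set against an expectation, 0 of the 60 were lower and 3 higher, with a median log2 change of -0.04, against 4.16% lower and 2.56% higher of all loops. Without vehicle replicate 1, edgeR called 7 of the 60 and 8.67% of all loops, and without any 1 of the other 3 libraries 0, so the number of calls rested on having all 4 libraries and on the expectation.

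Of 7 loops that joined the ends of a shared large domain, 3 were lower, and 2 of these are described here. The loop chr16:85850001-86560000 borders a domain with IRF8 and FOXF1, transcription factors of myeloid cells and of lung mesenchyme. Its log2 ratio of observed over expected contacts was 3.80 and 4.14 under vehicle and 3.18 and 2.78 under THZ1, a log2 change of -0.98 ± 0.26 (SE; edgeR adjusted p = 0.0183). The loop chr6:82955001-83780000, over IBTK and TPBG, had 3.33 and 3.48 under vehicle and 2.61 and 2.86 under THZ1, a change of -0.68 ± 0.21 (edgeR adjusted p = 0.0212). In both, the THZ1 libraries lay below the vehicle libraries on this scale. Contacts were 19, 24, 19 and 15 at the chr16 loop and 36, 49, 36 and 37 at the chr6 loop, where the conditions touched or overlapped.

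Loops of both domains whose border sequences are printed above were among those tested. In the SULF2 domain the enclosed loop chr20:46520001-47135000 had the most negative log2 change of all tested loops, with log2 ratios of 6.45 and 6.34 under vehicle and 4.78 and 4.55 under THZ1, a log2 change of -1.71 ± 0.23 (edgeR adjusted p = 0.000649). Its contacts were 42, 35, 28 and 21. The loop that joined the ends of the SEMA3A domain, chr7:83565001-84655000, did not pass the test, with 3.45 and 3.37 under vehicle and 3.80 and 3.42 under THZ1, a log2 change of 0.22 ± 0.25 (edgeR adjusted p = 0.569). Its contacts were 16, 20, 35 and 27. The first loop lies inside its domain and the second joins the ends, so they are not compared.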

How the data were processed

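Arima-HiC libraries of MDA-MB-231 cells were processed by the authors with Juicer 1.6 on hg19, and the file headers name juicer_tools 1.19.02. Domain and loop settings were not given in the sources used here. The deposited values used were the scores of each domain and, for each loop, counts of observed contacts, the expected signal around it and the q-value (FDR), all per library and not pooled. Tables of loops unique to one condition, the authors' own comparison, were not used. The members and gene lists were chosen with earlier results of these data known.

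Domains were matched 1 to 1 within 20 kb. Loops and smaller domains counted as enclosed when wholly inside. Gene starts came from GENCODE v44 lifted to GRCh37. Each gene had 1 start, the outermost 5′ end of its annotated span, so other promoters within a gene were not counted. Conditions were compared by exact permutation over 2 libraries each. Loop strength was tested with edgeR's quasi-likelihood test, with the log of the donut expectation as offset and Benjamini-Hochberg adjustment over all tested loops. DESeq2 was an alternative. Named domains were, of those in all 4 lists, the 3 longest, the 3 with most and the 3 with fewest coding starts per Mb, the 3 of highest mean corner score and the 3 with the widest difference in loops, and the 3 of highest score in each condition alone. Named loops were up to 3 joining loops in each direction past the threshold. Kinases and other genes that share the RPL or RPS prefix were left out of the ribosomal list after its values were seen, which changed 97 genes to 81 and no count. Every other named item was chosen after its values were seen. The scripts were tested on simulated data. Some items that these rules name are not reported here.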

Additional observations from a re-analysis of the deposited data

How the results depend on the processing

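The number and gene density of large domains, the loops they enclosed, the share of these of 90 kb or less, and the smaller domains of the other condition kept their direction under every alternative run. The log2 ratio of the number of large domains rose from 0.12 to 0.55 for domains of at least the median corner score. This median, 1.08, was taken over domains of all sizes and lay above the median of large domains in every library. Large domains scored higher under THZ1, so the ratio of 0.55 also reflects scores. The log2 ratio of loops enclosed moved from -1.19 to -0.62 for domains in all 4 lists. The difference in smaller domains of the other condition went from 28.2 to 18.0 percentage points for smaller domains of at least the median score. The few smaller domains enclosed within a library came to 0 in both conditions when only domains in all 4 lists were taken. The shared spans and the domains of the other condition were examined after seeing the data. The difference in joining-loop share was near 0 (-0.0273 percentage points, THZ1 minus vehicle) and turned to 0.322 within 10 kb, 0.130 within 50 kb, 4.05 for domains of at least the median corner score and 3.45 for domains in all 4 lists, and ran from -1.53 to 1.47 when 1 library was left out. The excess of agreement within conditions over that between them was 0.167 on the Jaccard scale, 0.125 within 10 kb, 0.208 within 50 kb, 0.218 for a reciprocal overlap of 90% and 0.277 for the higher corner scores, and 0.130 to 0.187 without 1 library. Calls of lower strength, 25 of 60 loops, became 0 without an expectation (TMM, with 3 higher), 1 by DESeq2 and 0 to 7 without 1 library. With the replicate number as a block they were 25, and over all loops 769 against 720. Deviations of loops from their condition means correlated by 0.0175 between libraries of the same number. This gave no sign of pairing loop by loop, but cannot show a shift shared by all loops of a library. The cause of these changes was not tested. Depth per library is unknown here, and a loop or domain missing from a list may only have missed the caller's limit.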
